A study of Rattus norvegicus with 6 samples.

Results

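The MAP kinase cascade kinases comprised every gene whose symbol is Mapk, Map2k, Map3k or Map4k followed by a number. A probe was matched to 32 of these genes, 36 probes in all, among 30367 probes and 15154 gene symbols in all, and each gene was represented by its probe with the highest mean signal over the 6 arrays. The rule used the symbol and the mean signal and not the difference between treatments, but this gene set was chosen with earlier results of these data known. The reference table of rat genes held 43 such symbols, and Mapk4, Mapk7, Mapk8, Map3k5, Map3k9, Map3k10, Map3k15, Map3k19, Map3k20, Map3k21 and Map4k2, 11 in all, had no matched probe and were not analysed here. The match was made through the RefSeq accession of each probe, so a probe with an older accession may have been missed. Both treatment groups were Wistar rats. On postnatal day (PND) 3 and again on PND 5 they received an intraperitoneal injection, either 0.05 mg/kg lipopolysaccharide (LPS) of Salmonella enterica or saline of equal volume, and the ovaries of female pups were taken on PND 7. LPS is an endotoxin from the surface of Gram-negative bacteria, sensed by Toll-like receptor 4. RNA of whole ovaries was hybridized to 3 single-colour arrays per treatment. Which animals and litters lay behind each array was not used, so p-values measure the spread between these arrays alone. In whole tissue, fewer cells of a type and less RNA per cell cannot be told apart.

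A MAP kinase (MAPK) is switched on when a MAP kinase kinase (MAP2K) phosphorylates it, and the MAP2K is in turn phosphorylated by a MAP kinase kinase kinase (MAP3K). MAP4K proteins act further upstream on some MAP3Ks. The ERK branch mainly relays growth factor signals, and the p38 and JNK branches mainly relay stress and inflammatory signals, including those of Toll-like receptor 4. In the ovary ERK signaling takes part in oocyte maturation and ovulation. Because these proteins are regulated by phosphorylation, the amount of their mRNA is a separate quantity from the activity of the cascade, and the arrays measured mRNA.

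No kinase gene, read by its probe with the highest mean signal, met the test in either direction. At an unadjusted p under 0.05 in limma, a linear model fitted across all probes, 0 of 32 genes were higher after LPS and 0 were lower, where 2.46% of all probes were higher and 14.1% lower. Bright probes, a name used here for the 18093 that the scanner software placed well above background on each of the 6 arrays, included 27 of the 32 kinase genes and had shares of 1.85% and 2.39%. Of all 36 kinase probes, 2 were higher and 0 lower at an unadjusted p under 0.05 in limma, the second probes of Map2k4 and Map4k4. At 2-fold or more together with an unadjusted p under 0.05, 0 kinase genes were counted, against 1.69% of all probes. After Benjamini-Hochberg adjustment over all probes, 0 kinase genes and 0% of probes passed in limma, and the lowest adjusted p of a kinase gene was 0.33, for Mapk12. The methods' t-test also gave 0 genes after adjustment. At an unadjusted p under 0.05 it gave 1 kinase gene, Map2k2, which was lower, where 10.4% of all probes were lower and 2.59% higher. Of the 32 differences, 19 were above 0 and 13 were below, where 13602 of 30367 probes and 9768 of 18093 bright probes were above 0. Their median log2 fold change was 0.06, against -0.04 over all probes and 0.02 over bright probes. It was 0.04 with Map3k2 and Map4k3 at the bounds given with them and without Mapk10 and Map3k8, which were too dim for a fold. Background correction moved this median across 0, to -0.05 with normexp and to -0.05 without correction, where 13 of the 32 genes were above 0.

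**Figure D1:**
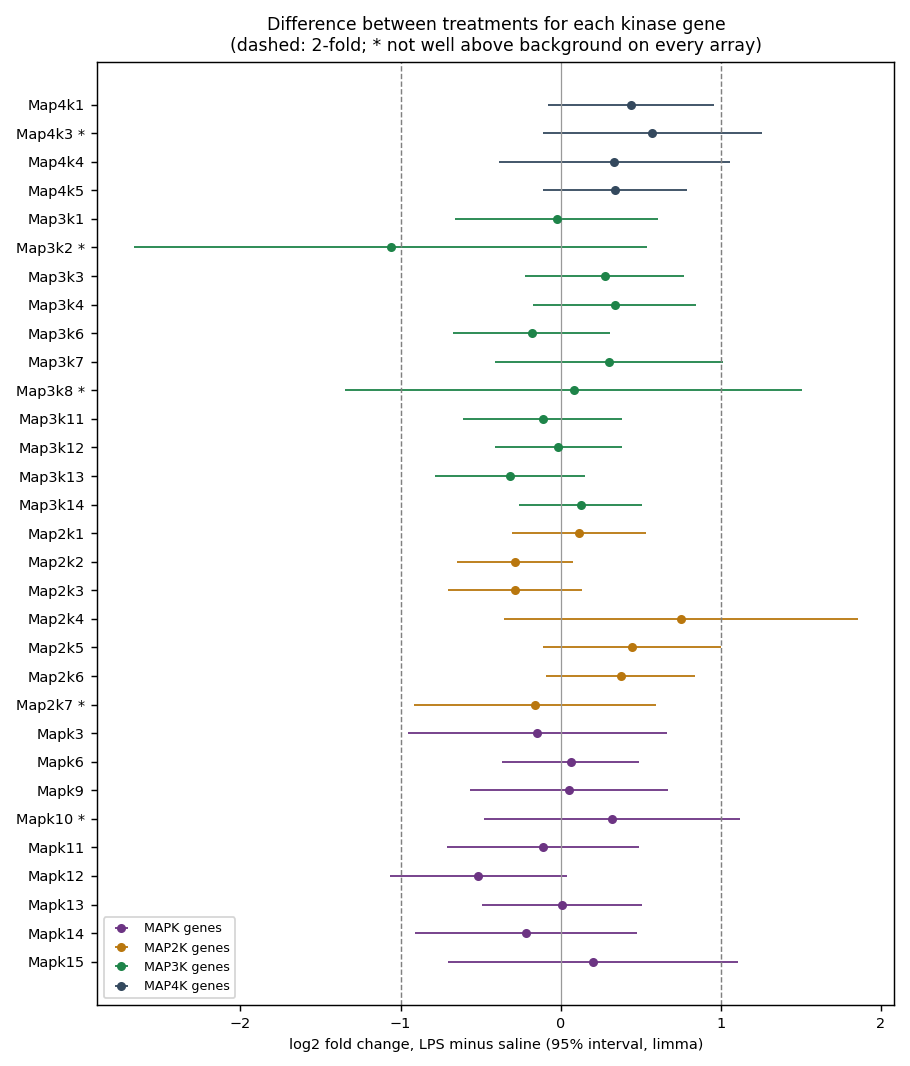
The log2 fold change of each kinase gene (LPS minus saline) is plotted on the horizontal axis with its 95% interval from limma (3 arrays per treatment), one row per gene and one colour per level of the cascade. All 31 intervals drawn include 0, and 22 lie within the dashed lines that mark 2-fold in either direction.

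The intervals show how large a difference the arrays could have missed. All 32 of the 95% intervals held 0, and 23 lay within 2-fold in both directions, 22 of these for genes with bright probes. The interval reached 2-fold higher in 7 genes (Map2k4, Map3k7, Map3k8, Map4k3, Map4k4, Mapk10 and Mapk15) and 2-fold lower in 3 (Map3k2, Map3k8 and Mapk12). The median standard error (SE) of a log2 fold change over the kinase genes was 0.22.

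The LPS and saline arrays did not overlap at 5 kinase genes. Map2k6 and Map4k1 were higher on every LPS array, and Map2k2, Map2k3 and Mapk12 were lower on every LPS array. The smallest two-sided p of an exact permutation test is 0.1 with 3 arrays in each group, so separation alone does not pass a test. Over all probes the groups were apart at 5.02% in the higher and 18.4% in the lower direction, and over bright probes at 5.69% and 5.75%. All 5 genes had bright probes, and the counts of 2 higher and 3 lower among 27 such genes exceeded these shares by fewer than 2 genes each.

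**Figure D2:**
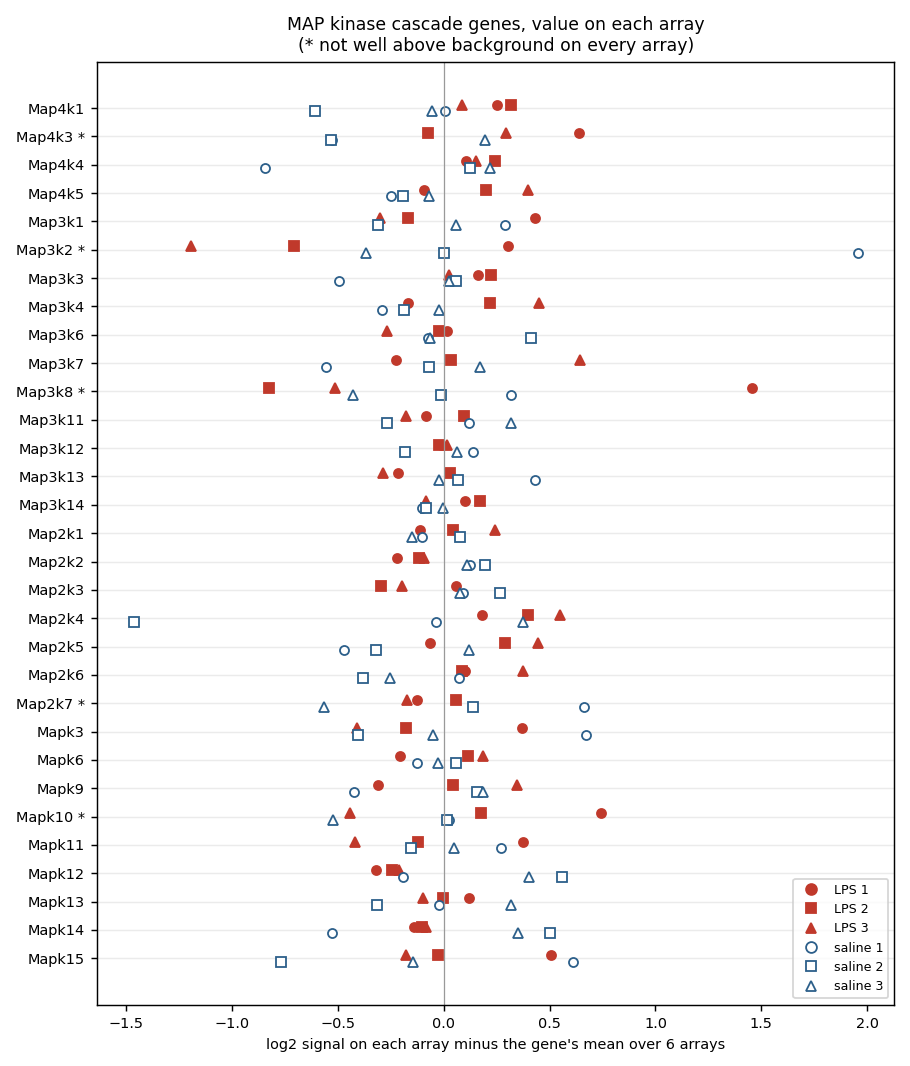
Each row is a kinase gene, and the horizontal axis gives the log2 signal on each array minus the mean of that gene over the 6 arrays, with filled symbols for LPS, open symbols for saline, and circles, squares and triangles for replicates 1, 2 and 3. At 26 of the 31 genes drawn the filled and open symbols interleave, and saline replicate 1 of Map3k2 stands farthest from its mean.

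In the ERK branch, Mapk3 encodes ERK1, a MAP kinase at its end. Its log2 signal, set against the 75th percentile of its array, was 6.07, 5.52 and 5.29 with LPS (replicates 1, 2 and 3, the order kept for all genes) and 6.37, 5.30 and 5.65 with saline. Replicate 1 was the highest array of both treatments, and the log2 fold change was -0.15 (SE 0.34, 95% interval -0.95 to 0.66).

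Map2k1 and Map2k2 encode MEK1 and MEK2, the kinases that phosphorylate ERK. For Map2k1 the LPS values were 0.10, 0.25 and 0.45 and the saline values 0.11, 0.29 and 0.06, so the groups overlapped, with a log2 fold change of 0.12 (SE 0.18). Map2k2 differed in direction and in its separation. It read 2.39, 2.50 and 2.52 with LPS and 2.73, 2.81 and 2.72 with saline, and its saline SD was the smallest of the 5 separated genes. Its mean was 2.47 ± 0.07 with LPS and 2.76 ± 0.05 with saline (SD, n = 3 each), a log2 fold change of -0.29 (SE 0.15, limma adjusted p = 0.42). Leaving out single arrays gave values from -0.31 to -0.25, and without scaling between arrays it was 0.09. Map2k5 encodes the activator of ERK5, whose own gene Mapk7 was not analysed here. Its values were -2.58, -2.23 and -2.07 with LPS and -2.98, -2.83 and -2.39 with saline, overlapping only through LPS replicate 1, and the log2 fold change was 0.44 (SE 0.23, limma adjusted p = 0.42). With the replicate number as a block its unadjusted p was under 0.05 (adjusted p = 0.21 in limma). It was also under 0.05 before adjustment without LPS replicate 1 (log2 fold change 0.59) and without saline replicate 3 (0.62).

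The p38 MAP kinases are encoded by Mapk11, Mapk12, Mapk13 and Mapk14, of which Mapk14 encodes p38 alpha, the main form in inflammatory signaling. Mapk12 (p38 gamma) had the lowest p of all kinase genes. It read -3.21, -3.13 and -3.10 with LPS and -3.08, -2.33 and -2.49 with saline. Saline replicate 1 lay next to the LPS arrays, and saline replicates 2 and 3 lay above. The log2 fold change was -0.51 (SE 0.23, 95% interval -1.07 to 0.04, limma adjusted p = 0.33). Its unadjusted p was under 0.05 with the replicate block (adjusted p = 0.24 in limma), under both background alternatives and without saline replicate 1, where the log2 fold change was -0.74. Without saline replicates 2 and 3 together it was -0.07.

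Mapk14 followed the same division of the saline arrays. Its LPS values of 1.21, 1.24 and 1.26 were almost equal (SD 0.03), whereas the saline values were 0.82, 1.85 and 1.70 (SD 0.56), below and above all LPS arrays. The log2 fold change was -0.22 (SE 0.29, 95% interval -0.91 to 0.47). Without saline replicate 1 it was -0.54 and under an unadjusted p of 0.05, and without saline replicates 2 and 3 together it was 0.42, so its direction rested on which saline arrays were used. Mapk11 (p38 beta) read -0.93, -1.42 and -1.72 with LPS and -1.03, -1.46 and -1.26 with saline, a log2 fold change of -0.11 (SE 0.25). A second Mapk11 probe was dim on every array. Mapk13 (p38 delta) read -0.81, -0.94 and -1.03 with LPS and -0.95, -1.24 and -0.61 with saline, and the LPS values lay inside the saline range (log2 fold change 0.01, SE 0.21).

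Map2k3 and Map2k6 encode MKK3 and MKK6, the kinases that phosphorylate p38, and they were apart in opposite directions. Map2k3 read 2.27, 1.91 and 2.02 with LPS and 2.30, 2.48 and 2.29 with saline. LPS replicate 1 lay just under the lowest saline array, and the log2 fold change was -0.29 (SE 0.18, limma adjusted p = 0.52). Map2k6 read -0.96, -0.97 and -0.69 with LPS and -0.99, -1.44 and -1.31 with saline. Here saline replicate 1 lay just under the lowest LPS array, and the log2 fold change was 0.37 (SE 0.19, limma adjusted p = 0.41). Without saline replicate 1 it was 0.50, under an unadjusted p of 0.05, and without saline replicates 2 and 3 together it was 0.12. Without scaling between arrays Map2k3 turned to 0.09, while Map2k6 was above 0 under all 20 alternatives.

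**Figure D3:**
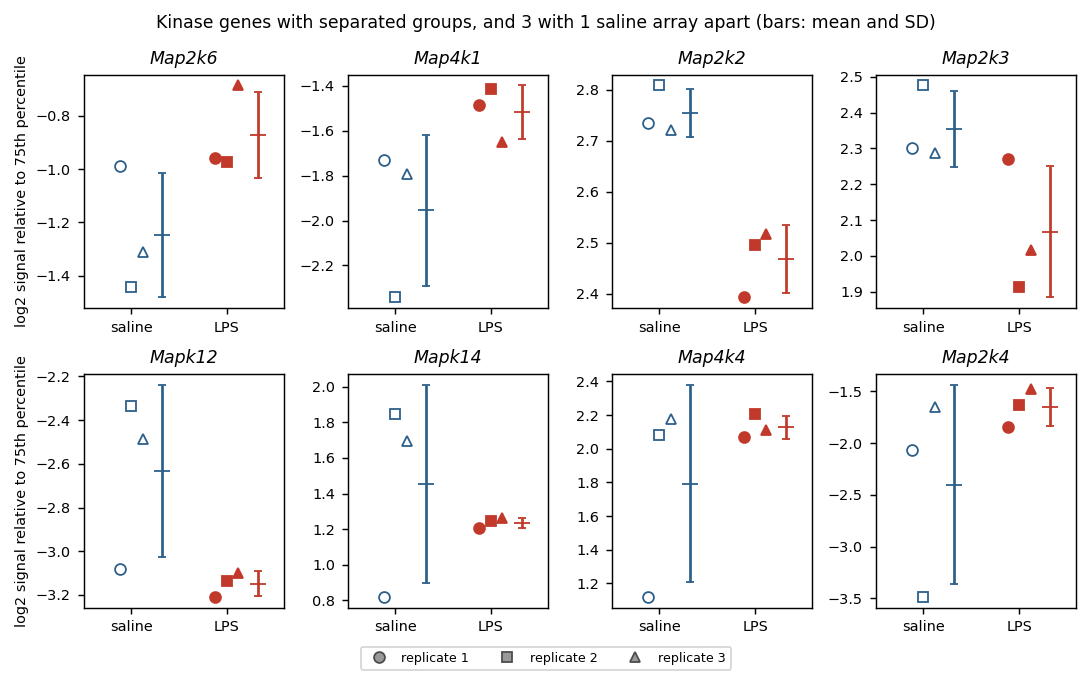
The log2 signal (vertical axes, each array scaled to its own 75th percentile) is shown for 8 kinase genes, with circles, squares and triangles for replicates 1, 2 and 3 and a bar for the mean and SD of each treatment (n = 3). The vertical axes differ between genes. In Mapk12 and Mapk14 the saline circle lies apart from the other saline arrays, in Map4k4 the saline circle is low, and in Map2k4 the saline square is low.

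In the JNK branch, Mapk9 (JNK2) read -2.77, -2.41 and -2.11 with LPS and -2.88, -2.30 and -2.27 with saline. Replicate 1 was the lowest array of each treatment, and the log2 fold change was 0.05 (SE 0.26, 95% interval -0.57 to 0.67). Mapk10 (JNK3, known mainly from the nervous system) was dim on every array, that is, never well above background, so no fold is given, and Mapk8 (JNK1) was not analysed here.

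Map2k4 (MKK4) and Map2k7 (MKK7) phosphorylate JNK. Map2k4 had the largest positive log2 fold change of the kinase genes, 0.75 (SE 0.46, 95% interval -0.36 to 1.86, limma adjusted p = 0.53). Its values were -1.85, -1.63 and -1.48 with LPS and -2.06, -3.49 and -1.65 with saline. Saline replicate 2 was far below the other 5 arrays, and without it the difference was 0.21. Without saline replicate 3 it was 1.13, under an unadjusted p of 0.05. A second Map2k4 probe read -3.29, -3.34 and -2.81 with LPS and -4.36, -4.28 and -3.41 with saline, so that the groups did not overlap. Its log2 fold change was 0.87 (SE 0.31, limma adjusted p = 0.27), and it was well above background on 3 LPS arrays and 1 saline array. Map2k7, well above background on 3 LPS arrays and 1 saline array, read -4.42, -4.24 and -4.47 with LPS and -3.63, -4.15 and -4.86 with saline, a log2 fold change of -0.16 (SE 0.32). Without saline replicate 1 it was 0.13.

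Of the 11 MAP3K genes, which receive signals from different receptors, 5 were above 0 and 6 below, with a median log2 fold change of -0.01, and none had separated groups. Map3k7 encodes TAK1, which acts between Toll-like receptors and both the NF-kappaB and the p38 and JNK branches. It read -2.84, -2.58 and -1.97 with LPS and -3.16, -2.68 and -2.44 with saline, a log2 fold change of 0.30 (SE 0.30). In both treatments replicate 1 was the lowest and replicate 3 the highest. Map3k1 (MEKK1) read 0.81, 0.21 and 0.08 with LPS and 0.67, 0.07 and 0.44 with saline, a log2 fold change of -0.03 (SE 0.27, 95% interval -0.66 to 0.61). Map3k8 encodes Tpl2, which carries Toll-like receptor signals to ERK in macrophages. It was dim on every array, so no fold is given.

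Map3k2 (MEKK2) had the largest negative fitted value, -1.06, but was well above background on 1 saline array and no LPS array. It read -5.97, -6.98 and -7.46 with LPS and -4.31, -6.27 and -6.64 with saline, and only a bound could be set, at least 1.21-fold lower with LPS (limma adjusted p = 0.54). The bound rested on saline replicate 1, without which it was 0.741, no longer a bound on a decrease. With the replicate block the unadjusted p of Map3k2 was under 0.05 (adjusted p = 0.17 in limma). The other MAP3K genes, Map3k3, Map3k4, Map3k6, Map3k11, Map3k12, Map3k13 and Map3k14 (the last encoding NIK, a kinase of the NF-kappaB pathway), lay between -0.32 for Map3k13 and 0.34 for Map3k4, and the 95% interval of each was within 2-fold in both directions. The 2 probes of Map3k3 gave 0.27 and 0.02. With the replicate block 1 kinase gene (Map2k5) was higher and 2 (Map3k2 and Mapk12) were lower at an unadjusted p under 0.05, where 4.19% and 16.6% of all probes were, and 1 (Map3k2) was so at 2-fold, where 2.07% of all probes were.

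All 4 MAP4K genes had a positive log2 fold change, with a median of 0.39, and none met the test. Among all probes 13602 of 30367 were above 0. Map4k1 encodes HPK1, a kinase found mainly in blood cells. It read -1.48, -1.42 and -1.65 with LPS and -1.73, -2.34 and -1.79 with saline, all LPS arrays being above all saline arrays. Its mean was -1.52 ± 0.12 with LPS and -1.96 ± 0.34 with saline (SD, n = 3 each), a log2 fold change of 0.44 (SE 0.22, limma adjusted p = 0.38). The values with each array left out lay between 0.25 and 0.55, and Map4k1 was above 0 under all 20 alternatives.

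Map4k4 (HGK), a kinase upstream of JNK, read 2.07, 2.20 and 2.11 with LPS and 1.12, 2.08 and 2.18 with saline. A single low array, saline replicate 1, set the log2 fold change of 0.34 (SE 0.30), which was -0.0016 without it, and without saline replicates 2 and 3 together it was 1.01 and under an unadjusted p of 0.05. A second Map4k4 probe was well above background on 3 LPS arrays but on no saline array. It read -3.84, -4.28 and -3.93 with LPS and -4.81, -4.67 and -4.54 with saline. Its bound, 1.58-fold higher with LPS (1.49 to 1.73 with each array left out), equalled the fitted fold. The value is therefore an estimate and not a lower limit. The log2 fold change was 0.66 (SE 0.19, limma interval 0.21 to 1.11, limma adjusted p = 0.27), from a probe with 1 spot. The 2 probes of Map4k4 thus differed in whether the groups overlapped. The second Map2k4 and second Map4k4 probes were the 2 of 36 kinase probes with an unadjusted p under 0.05 in limma. Both were higher with LPS, where 2.46% of all probes were higher and 14.1% lower. Map4k3, well above background on 2 LPS arrays and no saline array, read -4.45, -5.16 and -4.79 with LPS and -5.61, -5.61 and -4.89 with saline. The groups overlapped, and the bound on the ratio of their means was at least 1.31-fold higher with LPS (1.16 to 1.49 with each array left out, limma adjusted p = 0.39). Its fitted log2 fold change was -0.05 with normexp and -0.08 without background correction. Map4k5 read -0.56, -0.27 and -0.07 with LPS and -0.72, -0.66 and -0.54 with saline, a log2 fold change of 0.34 (SE 0.19).

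Promoters are shown for Map4k1 and Map2k3, separated genes of opposite direction whose windows hold different motifs. The sequences are the 250 bases before the gene start in RefSeq on GRCr8, read on the strand of the gene. Map4k1 lies at chr1:93398319-93398568 on the + strand, and its capitals mark a match to the CArG box of SRF followed by an NF-kappaB site. Map2k3 lies at chr10:46107389-46107638 on the + strand, and its capitals mark 3 GC boxes (GGGCGG on either strand).
Map4k1: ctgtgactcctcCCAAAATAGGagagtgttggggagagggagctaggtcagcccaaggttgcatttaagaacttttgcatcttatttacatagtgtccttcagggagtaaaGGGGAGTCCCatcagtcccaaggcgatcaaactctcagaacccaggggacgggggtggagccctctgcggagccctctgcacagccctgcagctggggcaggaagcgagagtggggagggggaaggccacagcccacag
Map2k3: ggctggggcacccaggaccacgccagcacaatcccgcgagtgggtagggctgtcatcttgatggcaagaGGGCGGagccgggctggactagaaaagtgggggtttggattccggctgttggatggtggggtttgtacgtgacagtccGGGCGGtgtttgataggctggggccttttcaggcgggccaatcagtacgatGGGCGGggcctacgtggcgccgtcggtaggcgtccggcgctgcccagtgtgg
A window of 300 bases, 250 before and 50 after the start, was searched on both strands for 27 of the 32 genes with an entry. A GC box was present in 20 of the 27 and in 33.1% of all 33469 promoters in the table. Of the separated genes, Map2k2, Map2k3 and Mapk12 held a GC box, and Map2k6 and Map4k1 did not. The separated genes were picked by their values here, and a link of motif to direction was not tested. An NF-kappaB site was present in 6 (Map2k1, Map3k1, Map3k8, Map3k11, Map3k13 and Map4k1) and in 7.51% of all promoters. AP-1 sites (TGANTCA) were present in 2, Map2k4 and Map3k8 (7.33% of all), and cAMP response elements (TGACGTCA) in 2, Map3k13 and Mapk10 (1.83%). The CArG box was present in Map4k1 alone (1.64%), and the TATA box TATAAA in none (14.2%). A match describes the letters of the window and is not a site of binding.

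The proteins around the cascade were followed through 48 measured genes, namely scaffolds and adaptors, phosphatases and other brakes, and kinases activated by MAP kinases. Of these, 28 were above 0 and 20 below, with a median log2 fold change of 0.03, where 13602 of 30367 probes and 9768 of 18093 bright probes were above 0. At an unadjusted p under 0.05 in limma, 0 were higher and 2 were lower, where 2.46% and 14.1% of all probes were. One was Rps6ka1 (RSK1), a kinase activated by ERK, which read 1.46, 1.26 and 1.26 with LPS and 1.55, 3.17 and 2.83 with saline, a log2 fold change of -1.19 (SE 0.41, limma adjusted p = 0.27). Its saline replicate 1 lay next to the LPS arrays. Leaving that array out keeps only saline replicates 2 and 3, the saline arrays high in adrenal markers (described below). The value was then -1.68 (limma adjusted p = 0.028), in a fit in which 0.955% of all probes passed. Without saline replicate 2 it was -0.86, without saline replicate 3 it was -1.04 and without both it was -0.23, none of these under an unadjusted p of 0.05. The other was Spred2, a brake on Ras and ERK signaling, which was dim on every array, so no fold is given. With the replicate block 6 partner genes were under 0.05 before adjustment, namely Rps6ka1, Spred2, Dusp1, Dusp9 and Mknk2, which were lower, and Traf6, which was higher (4.19% of all probes were higher and 16.6% lower). Traf6, the adaptor of Toll-like receptors, was dim on every array, so no fold is given. Mknk2, a kinase activated by ERK and p38, had a log2 fold change of -0.39 (adjusted p = 0.24 in limma with the block).

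Among the 17 scaffolds and adaptors 11 were above 0 (median 0.15), and none met the test. Gadd45a, an activator of the MAP3K Map3k4, read 1.61, 1.30 and 1.27 with LPS and 1.40, 0.80 and 0.81 with saline (log2 fold change 0.39, SE 0.23). Tab1, a subunit of the TAK1 complex, read 0.41, 0.25 and 0.32 with LPS and -0.49, 0.42 and 0.13 with saline, with saline replicate 1 the lowest array (0.31, SE 0.26). Arrb2, a beta-arrestin that can act as a scaffold for ERK and JNK, read 1.15, 1.06 and 0.77 with LPS and 0.78, 0.70 and 0.66 with saline, overlapping by 1 array (0.28, SE 0.17).

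Among the 21 phosphatases and brakes 11 were above 0 (median 0.02). Dusp1, a phosphatase that is an early target of inflammatory signals and acts on p38 and JNK, read -2.71, -1.94 and -2.14 with LPS and -2.15, -1.47 and -1.83 with saline, the log2 fold change being -0.45 (SE 0.28, limma adjusted p = 0.54, and 0.21 with the replicate block, where the unadjusted p was under 0.05). Replicate 1 was the lowest and replicate 2 the highest array in both treatments. Dusp6, the ERK phosphatase that is itself induced by ERK, read -0.08, -0.39 and -0.43 with LPS and -0.45, 0.65 and 0.61 with saline, and it was high on saline replicates 2 and 3 only (-0.57, SE 0.33). Dusp9, a related phosphatase, had the same order of saline arrays, with -2.91, -1.76 and -1.48 against -3.04, -2.57 and -2.57 with LPS (-0.68, SE 0.39). With the replicate block its unadjusted p was under 0.05 (adjusted p = 0.22 in limma), and without saline replicates 2 and 3 together its value was 0.18 and that of Dusp6 was 0.15. Dusp16, a phosphatase of JNK and p38, was higher on every LPS array, with -1.94, -1.67 and -1.86 against -2.26, -2.07 and -2.19 (0.35, SE 0.17, limma adjusted p = 0.35). Pebp1, the Raf kinase inhibitor protein, was lower on every LPS array, with 4.98, 5.22 and 5.02 against 5.37, 5.33 and 5.42 (-0.30, SE 0.16, limma adjusted p = 0.43). Of all 48 partner genes 1 had separated groups in the higher and 3 in the lower direction. The shares were 5.02% and 18.4% of all probes, and 5.69% and 5.75% of bright probes.

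Among the 10 kinases activated by MAP kinases 6 were above 0 (median 0.07). Mapkapk2 (MK2), the principal kinase acting after p38, read 2.40, 2.68 and 2.42 with LPS and 1.83, 2.90 and 2.94 with saline, and as for Mapk14 the LPS values lay within the saline range (log2 fold change -0.06, SE 0.33). Mapkapk3 read 0.80, 1.25 and 1.30 with LPS and 0.85, 0.19 and 0.87 with saline (0.48, SE 0.26).

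The arrays differed in ways other than treatment. Saline replicates 2 and 3 stood apart in adrenal genes. The log2 of the summed signal of 8 adrenal cortex markers was 7.92 and 8.28 on these arrays, 2.65 on saline replicate 1 and 2.39 to 4.0 with LPS. On the LPS arrays most of this sum was Hsd3b1 (1.84, 3.91 and 3.59). At an unadjusted p under 0.05, 6 of the 8 were lower with LPS, where 14.1% of all probes were. The median log2 fold change of the 8 was -4.71, or -4.35 with the 3 genes that were dim on all LPS arrays at their bound. All 8 measured adrenal medulla markers were lower by the same criterion (median -3.42, also with 3 such genes at their bound), their summed level being 6.43 and 5.81 on saline replicates 2 and 3, 2.57 on saline replicate 1 and 1.65 to 2.46 with LPS. No marker of either list was dim on every array. Saline replicates 2 and 3 were the 2 highest or the 2 lowest of the 6 arrays at Map2k6, Map4k1, Mapk12 and Mapk14, 12.5% of the 32 kinase genes (14.8% of the 27 with bright probes), against 28.5% of all bright probes. Without these arrays 1 kinase gene (Map4k4) was higher and 2 (Map2k7 and Map3k2) were lower at an unadjusted p under 0.05, with 0 at an adjusted one in limma. Of all probes 2.55% were higher and 3.25% lower in that fit. The part of the adrenal transcripts in the differences of the kinase genes and of the partner genes, Rps6ka1, Dusp6 and Dusp9 included, was not tested.

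The ovary markers of the oocyte (Zp1, Zp2, Zp3 and Gdf9) and of granulosa cells (Amh and Inha) had bright probes. The log2 of the summed signal of 6 oocyte markers was 4.05, 5.54 and 5.24 with LPS and 4.49, 4.31 and 5.06 with saline, and that of 9 granulosa markers was 4.34, 6.16 and 5.63 with LPS and 5.14, 5.24 and 5.92 with saline, both lowest on LPS replicate 1. All 6 oocyte markers were above 0 (median 0.37) and none met the test, where 13602 of 30367 probes and 9768 of 18093 bright probes were above 0. Of the 9 granulosa markers 6 were above 0 (median 0.04) and 1, Kitlg (log2 fold change 0.57), was higher at an unadjusted p under 0.05, where 2.46% of all probes were. The granulosa marker Fshr was well above background on 3 LPS arrays and 1 saline array. LPS replicate 1 and saline replicate 1 were the 2 highest or the 2 lowest of the 6 arrays at 12 kinase genes, 37.5% of the 32 (37.0% of the 27 with bright probes), against 45.0% of all bright probes. Of 12 macrophage markers 9 were above 0 (median 0.23) and 3, Adgre1, Csf1r and Mrc1, were higher by the same criterion (2.46% of all probes). The summed level of all 12 was 3.75 to 3.83 with LPS and 3.46 to 3.71 with saline. Of 4 red blood cell markers 3 were below 0 (median -0.68) and 2 of them were lower at an unadjusted p under 0.05, where 14.1% of all probes were. The summed level of all 4 was 4.60 to 5.27 with LPS and 5.23 to 5.73 with saline. Of 5 skeletal muscle markers none met the test (median 0.36, summed level -0.89 to -0.35 with LPS and -1.26 to -0.56 with saline). The part of these cell types in the values of the kinase genes, Map4k1 included, was not tested.

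**Figure D4:**
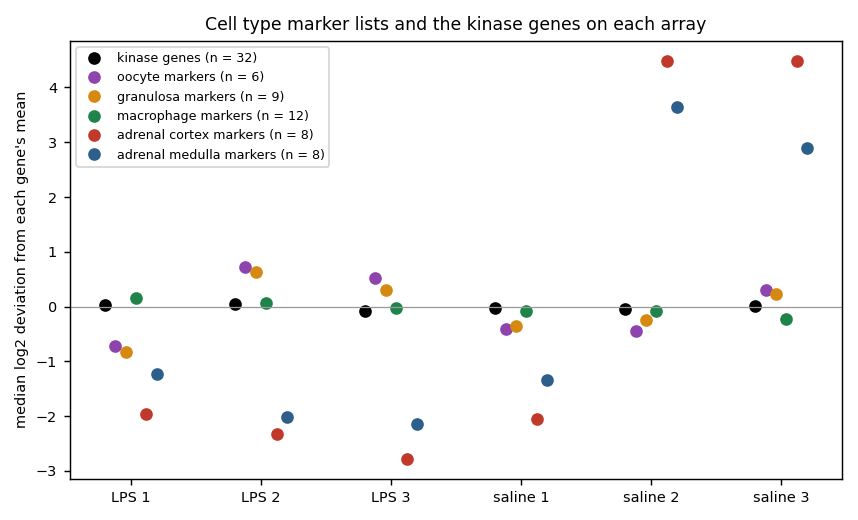
The median log2 deviation of each gene list from the genes' own means over 6 arrays is plotted for each array. The kinase genes stay within 0.085 of 0 on every array, while the adrenal cortex markers stand at 4.49 and 4.48 on saline replicates 2 and 3.

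The saline arrays spread more than the LPS arrays, both in the kinase genes and among all bright probes. The median SD over the 32 genes was 0.18 on the LPS arrays and 0.31 on the saline arrays, and the saline SD was the larger one at 20 genes (62.5%). Among all bright probes the saline SD was the larger one at 58.0%, with median SDs of 0.20 and 0.25. Saline replicate 1 lay nearer to the LPS mean than to the mean of the other saline arrays at 16 of the 32 genes. The same count was not made over all probes, so it cannot be read as particular to the kinase genes.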

How the data were processed

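RNA from rat ovaries was measured on 6 single-colour Agilent arrays on 1 slide, 3 per treatment, grouped by the labels. The authors deposited spot intensity values extracted with Feature Extraction 10.5.1.1, background subtracted by the software, and a table of intensity values equal to these within 0.497%. The log2 values were computed here from the deposited intensities. Well-above-background spots made up 66.3% to 76.0% of 58717 non-control spots per array, and none was saturated. The number of arrays limits the precision.

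Flagged outlier spots were left out, spots of a probe averaged, and log2 signal taken relative to each array's 75th percentile. The difference between treatments was fitted for 30367 probes by lmFit and eBayes of limma 3.58.1 in R 4.3.3, with Benjamini-Hochberg adjustment and no filter on dim probes. A probe counted as well above background on an array where at least 50% of its spots were. Where a gene was below background on every array of one treatment only, the fold is a bound: the mean of the other treatment against, per array, the higher of the dim probe's own signal and the lowest signal among probes well above background. The scanner files gave no gene names, so genes were named through RefSeq accessions (GRCr8 table), which gave 17998 probes a symbol, and 3408 RefSeq accessions were not matched.

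Genes named individually were set by role (18 measured), by an unadjusted p under 0.05 or by separated groups (19 in all). The values of 1 further kinase gene are not reported here, but it is in the counts over 32 genes. Others, named for single values, were chosen after their values were seen, as were the partner genes described. The members, the marker lists, which included the adrenal markers, and the partner lists were chosen with earlier results of these data known. Replicate numbers are shared between treatments. Arrays with the same number deviated together, with correlations of 0.298, 0.215 and 0.254 for numbers 1, 2 and 3. Unlike numbers gave 0.16 (LPS 2 with saline 3), 0.0678 (LPS 3 with saline 2) and otherwise negative values. Deviations within a treatment cancel out, so a likeness of LPS 1 and saline 1 alone can raise the others. Whole litters received 1 treatment, so equal numbers are not littermates. These correlations are the only source of the pairing and do not establish it. Values with the replicate number as a block are given where they change a call. The 20 alternatives covered background correction, scaling, the authors' table, dim probes, flagged spots, other limma settings, the methods' t-test, replicate and slide row blocks, the choice of probe and arrays left out. The methods' t-test stands for the analysis of variance that the study names for its data in general. The procedure was tested on simulated data with independent noise and planted differences larger than that of any kinase gene. That test does not cover differences of the size described here. LPS replicate 1 and the saline arrays lay in slide row 2 and LPS replicates 2 and 3 in row 1.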

Additional observations from a re-analysis of the deposited data

How the results depend on the processing

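Under none of the 20 alternatives, which included limma and the methods' t-test, did a kinase gene reach an adjusted p under 0.05. At an unadjusted p under 0.05, 3 kinase genes were higher without scaling between arrays (Map2k4, Map4k1 and Map4k3), where 5.29% of all probes were. With the slide row as a block 3 were higher (Map3k8, Map4k3 and Mapk10, of which Map3k8 and Mapk10 were dim on every array), where 6.9% of all probes were. The replicate block gave 1 (4.19% of all probes). With single arrays left out 0 to 3 were higher. There were 3 without LPS replicate 1 (4.03% of all probes) or without saline replicate 3 (2.52%), and 1 without saline replicate 1 (4.46%). In the lower direction 1 was counted with normexp (4.74% of all probes), without background correction (3.57%), with the methods' t-test (10.4%) and with limma's trend and robust settings (13.1%). The replicate block gave 2 (16.6% of all probes). With each array left out 0 to 2 were lower (2 without saline replicate 1, where 19.2% of all probes were). At 2-fold, 1 was counted without scaling (1230 of 30367 probes), with the replicate block (628 of 30367) and with the slide row block (1555 of 30366). With each array left out 0 to 1 was counted (1 without saline replicate 3, where 555 of 30367 probes were). Counts at 2-fold leave out the fit without saline replicates 2 and 3 together, which keeps only saline replicate 1. In that fit the log2 fold change was -2.49 for Map3k2, which was dim on every LPS array, and 1.01 for Map4k4. The median log2 fold change of the kinase genes was -0.0453 with normexp, -0.0517 without background correction and 0.433 without scaling, where all probes had a median of 0.34. Partner genes under 0.05 numbered 7 without background correction, 1 without scaling, 1 with dim probes left out, 6 with the replicate block and 1 to 7 with each array left out (7 without saline replicate 1, 5 without LPS replicate 1, 1 without LPS replicate 2 or 3 or saline replicate 2 or 3). Of all probes 1.06% were higher and 3.57% lower without background correction. These shares were 4.46% and 19.2% without saline replicate 1, and 4.03% and 18.6% without LPS replicate 1. They were 5.29% and 0.784% without scaling, 3.59% and 2.73% with dim probes left out, and 4.19% and 16.6% with the replicate block. Without LPS replicate 2 they were 1.67% and 9.71%, and without LPS replicate 3 they were 1.73% and 4.61%. Without saline replicate 2 they were 1.37% and 3.91%, and without saline replicate 3 they were 2.52% and 9.12%.

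Of 340 values of the named genes with a fold under an alternative, 289 kept direction and side of the threshold, 16 passed it with the same direction and 35 turned. Without scaling, the log2 fold change turned for Map2k2 (0.0888), Map2k3 (0.0869), Map2k7 (0.21), Map3k1 (0.35), Mapk3 (0.23), Mapk11 (0.27) and Mapk14 (0.16). With normexp and without background correction it turned for Map3k1 (0.11 and 0.10), Mapk9 (-0.0431 and -0.0593) and Mapk13 (-0.0476 and -0.0487). Quantile normalization turned Mapk9 (-0.019) and Mapk13 (-0.0154), and the percentile over bright probes turned Map3k1 (0.0182). The slide row as a block turned Map2k1 (-0.0533), Map3k1 (0.42), Map3k7 (-0.0747), Mapk3 (0.30), Mapk9 (-0.28) and Mapk11 (0.32), and leaving out saline replicates 2 and 3 together turned Mapk14 (0.42). With each array left out, values ran from -0.48 to 0.13 for Map2k7, -0.25 to 0.12 for Map3k1, -0.0016 to 0.53 for Map4k4, -0.38 to 0.15 for Mapk3, -0.14 to 0.22 for Mapk9, -0.32 to 0.0719 for Mapk11 and -0.14 to 0.17 for Mapk13. The cause was not tested. With the slide row as a block the treatment difference comes from slide row 2, where only LPS replicate 1 lay beside saline arrays. When saline replicates 2 and 3 are left out together, the remaining saline array is assumed to vary like the LPS arrays. The signal over background limits Mapk10, Map3k8, Map3k2, Map4k3 and Map2k7.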
